A study of Mus musculus with 9 samples.

Results

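The 9 genes described here are Nrgn, Camk2a, Camk2b, Camk2d, Camk2g, Camk2n1, Camk4, Calm2 and Calm3, chosen by symbol from the 54232 genes listed in each library of a study of mouse cortical neurons. They encode neurogranin, the 4 subunits of calcium/calmodulin-dependent protein kinase II (CaMKII), a CaMKII inhibitor, a nuclear calmodulin kinase, and calmodulin itself (Calm2 and Calm3). All 9 were found and all 9 passed the filter on low counts. They were named with results of these same libraries in view, so their levels and differences between groups are given as a description.

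RNA was sequenced from 9 libraries of cortical neurons labelled wildtype and CD1, an outbred mouse stock, with 3 libraries in each of 3 groups. The PA + PS2 group received a peptide amphiphile together with a second component, and its library names read IKVAV plus PEDOT-S-OH. The PA group received the peptide amphiphile alone, and its library names read IKVAV, a cell-binding sequence of laminin. The control libraries carry the name PDL, which the labels do not spell out. Peptide amphiphiles are short peptides carrying an alkyl chain, which stack into nanofibres, and PEDOT is a family of conducting polymers. Groups were taken from the titles, because the controls too have peptide amphiphile entered as their treatment. No age, dose or duration is given, the kit named is for total RNA although polyA RNA is the molecule entered, and the labels do not say whether repeats 1 to 3 were separate cultures. The p-values below therefore measure the spread between these libraries, which may be technical.

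Calmodulin is a small protein that binds calcium and then attaches to, and switches on, many enzymes. In forebrain neurons CaMKII is among its main targets: the kinase is abundant at excitatory synapses, phosphorylates itself once activated, and is required for long-term potentiation. Neurogranin holds calmodulin in dendritic spines when calcium is low, Camk2n1 blocks active CaMKII, and Camk4 carries the calcium signal to transcription factors in the nucleus.

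The coding stretches below show the calmodulin-binding or regulatory part of 3 of these transcripts, and how far the sequences of Calm2 and Calm3 differ. The counts cover whole genes, and no comparison rests on these stretches alone. They were read 5′ to 3′ on the coding strand from the GENCODE M21 transcripts of mouse build mm10. The Nrgn stretch, at chr9:37546037-37546120 on the minus strand, encodes the calmodulin-binding segment, and its capitals mark the codon of the serine whose phosphorylation by protein kinase C releases calmodulin.
Nrgn: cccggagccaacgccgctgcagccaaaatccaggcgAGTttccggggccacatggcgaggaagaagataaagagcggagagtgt
The Camk2b stretch, at chr11:5988955-5989038 on the minus strand, and the Camk2d stretch, at chr3:126797702-126797785 on the plus strand, encode the regulatory segment of CaMKII. Capitals mark the codon of the threonine whose phosphorylation keeps the kinase active after calcium has fallen.
Camk2b: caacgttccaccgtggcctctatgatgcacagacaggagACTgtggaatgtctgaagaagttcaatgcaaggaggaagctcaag
Camk2d: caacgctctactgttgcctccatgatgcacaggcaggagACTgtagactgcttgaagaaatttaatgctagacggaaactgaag
These 2 stretches differ at 17 of 84 bases and are 79.8% identical. The Calm3 stretch, at chr7:16917585-16917728 on the minus strand, and the Calm2 stretch, at chr17:87435791-87435934 on the minus strand, cover the same coding bases, and capitals mark the 24 bases at which they differ.
Calm3: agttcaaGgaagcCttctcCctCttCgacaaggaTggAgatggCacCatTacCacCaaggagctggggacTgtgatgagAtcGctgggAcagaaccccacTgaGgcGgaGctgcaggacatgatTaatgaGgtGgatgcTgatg
Calm2: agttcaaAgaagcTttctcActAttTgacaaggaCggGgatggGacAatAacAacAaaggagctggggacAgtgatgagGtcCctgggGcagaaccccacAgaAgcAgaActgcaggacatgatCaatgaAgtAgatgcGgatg
Over the whole reading frame of 450 bases, Calm2 and Calm3 differ at 78 bases and are 82.7% identical, yet they encode the same protein. Their longest run of identical bases is 17. How the authors' counting treated reads that match more than 1 place, such as a processed copy of a calmodulin gene, is not given in the sources used here, so the calmodulin counts carry that uncertainty.

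The libraries held 20746851 to 27237398 counted reads. Summed levels of the 8 pan-neuronal markers, in CPM (read counts scaled to a common library size, here with TMM, a trimmed mean of M values), were 7644 to 8426 in PA + PS2, 7057 to 8359 in PA and 7275 to 7857 in control libraries. Markers of other cells were present at lower sums, with astrocyte markers at 159 to 192, 192 to 236 and 155 to 248 CPM in the same order. Of 15712 genes tested with the quasi-likelihood test of edgeR at an adjusted p under 0.05, 7 passed for PA + PS2 against control, a background of 0.0446%. That count was 184 with the repeat number as a block, a background of 1.17%, and for PA + PS2 against PA the block gave a background of 0.363%. The PA + PS2 against control count was 175 without control repeat 1 and 18 without PA repeat 1, and without PA + PS2 repeats 1, 2 and 3 it was 0, 2 and 1. Without control repeats 2 and 3 it was 0 each time. No gene passed for PA against control, a background of 0%, or for PA + PS2 against PA, also 0%; at an unadjusted p under 0.05 the counts were 192 and 881 genes, and DESeq2 called 0 and 136.

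None of the 9 members passed in any of the 3 comparisons, with edgeR, with the repeat block, or with DESeq2, whose backgrounds were 0% for PA against control, 1.48% for PA + PS2 against control and 0.866% for PA + PS2 against PA. At an unadjusted p under 0.05, edgeR listed 2 members for PA + PS2 against control, Camk2a and Camk2d, where the background was 5.63%. It listed Nrgn alone for PA against control, where the background was 1.22%, and Camk2a alone for PA + PS2 against PA, where the background was 5.61%. With 1 library left out, the member count for PA + PS2 against control was 0 without PA + PS2 repeat 2, PA + PS2 repeat 3 or control repeat 2, 1 without control repeat 1 and 3 without PA + PS2 repeat 1. For PA + PS2 against PA it was 0 without PA + PS2 repeat 2 or 3, 3 without PA repeat 1 and 2 without PA repeat 3. For PA against control it was 2 without PA repeat 2 and 1 otherwise. Groups did not overlap for 3 of 9 members in PA + PS2 against control, beside 11.9% of all genes tested: 1 was higher (5.38% of all genes) and 2 were lower (6.54%). In PA against control they did not overlap for 1 of 9, beside 4.04%; it was higher (1.97% of all genes), and none was lower (2.07%). In PA + PS2 against PA they did not overlap for 1 of 9, beside 9.64%; it was lower (6.32% of all genes), and none was higher (3.32%). Because the members were chosen on these comparisons, nothing is read from these counts. The median log2 fold change over the members was 0.00 for PA + PS2 against control, 0.02 for PA against control and -0.06 for PA + PS2 against PA, where the medians of all genes tested were -0.001, -0.008 and 0.005. The comparisons share libraries and are not independent of each other.

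**Figure D1:**
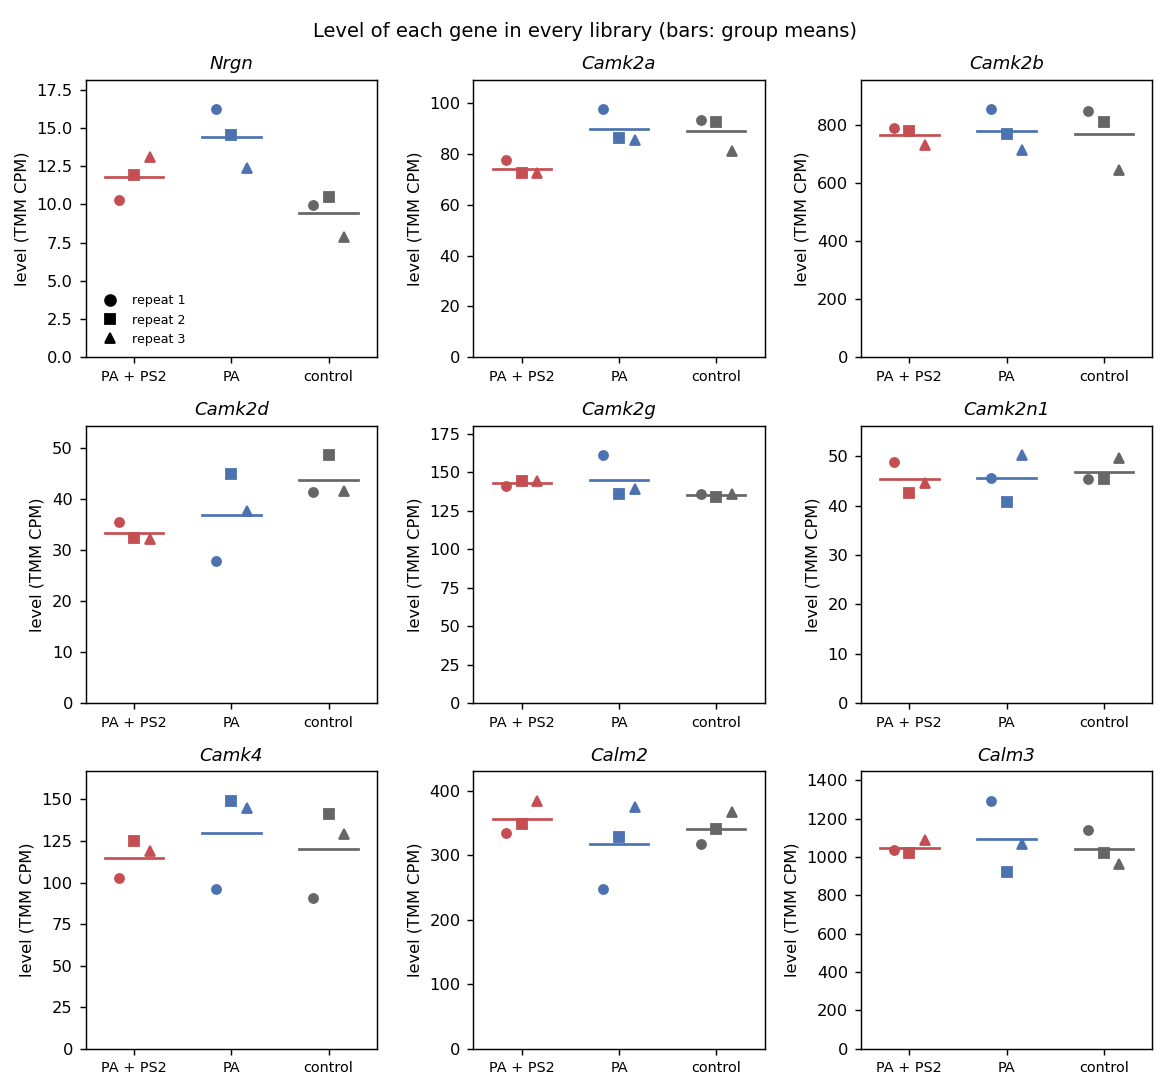
Levels of the 9 genes in each library, with CPM on the vertical axis from 0 and the groups PA + PS2, PA and control along the horizontal axis; points are libraries, marked by repeat number, and bars are group means. Nrgn lies at 12.4 to 16.2 CPM in PA and 7.87 to 10.5 CPM in control libraries, and Camk2a at 72.6 to 77.6 CPM in PA + PS2 libraries, below every other library.

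Neurogranin, the calmodulin buffer of dendritic spines, is encoded by Nrgn (ENSMUSG00000053310, mm10 chr9:37544492-37552904, minus strand). It stood at 10.3, 11.9 and 13.1 CPM in PA + PS2 repeats 1, 2 and 3, at 16.2, 14.5 and 12.4 CPM in PA repeats, and at 9.94, 10.5 and 7.87 CPM in control repeats. Every PA library lay above every control library, while the PA + PS2 libraries overlapped with both. Group means were 11.8 ± 1.36 CPM in PA + PS2, 14.4 ± 1.92 CPM in PA and 9.43 ± 1.38 CPM in control (SD, n = 3 each). The fitted log2 fold change was 0.60 ± 0.17 (SE) for PA against control, a fold of 1.52, and 0.32 ± 0.17 for PA + PS2 against control. For PA + PS2 against PA it was -0.29 ± 0.16. With 1 library left out at a time, the PA against control value of Nrgn ran from 0.49 to 0.71. Its direction could hardly turn, because every PA library lay above every control library. Nrgn had the fewest reads of the 9 genes, 171 to 360 per library, with a counting error of up to 7.65%.

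The CaMKII alpha subunit, the form that marks excitatory forebrain neurons, is encoded by Camk2a (ENSMUSG00000024617, mm10 chr18:60925618-60988152, plus strand). It stood at 77.6, 72.7 and 72.6 CPM in PA + PS2 repeats 1, 2 and 3, at 97.6, 86.3 and 85.5 CPM in PA repeats, and at 93.5, 92.8 and 81.1 CPM in control repeats. All 3 PA + PS2 libraries lay below all 6 others, and the PA and control libraries overlapped. The means were 74.3 ± 2.88 CPM in PA + PS2, 89.8 ± 6.81 CPM in PA and 89.1 ± 6.99 CPM in control (SD, n = 3 each). Camk2a was 0.834 times its control level in PA + PS2 (log2 fold change -0.26 ± 0.10) and 0.828 times its PA level (-0.27 ± 0.10), while PA against control gave 0.01 ± 0.10. Without 1 library at a time, the first value ran from -0.33 to -0.22 and the second from -0.31 to -0.21. Reads of Camk2a numbered 1614 to 2277 per library, with a counting error of up to 2.49%.

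The summed level of 6 excitatory neuron markers was 1551 to 1652 CPM in PA + PS2, 1230 to 1609 CPM in PA and 1363 to 1484 CPM in control libraries, and all 6 had a positive log2 fold change for PA + PS2 against control. Markers of fibroblasts or mural cells summed to 11.5 to 52.7 CPM in PA + PS2, 82.1 to 141 CPM in PA and 130 to 180 CPM in control libraries. Those of dividing cells summed to 60.7 to 77.9 CPM in PA + PS2, 110 to 175 CPM in PA and 82.9 to 204 CPM in control libraries. The 4 endothelial markers summed to 1.79 to 4.12 CPM in PA + PS2, 4.47 to 7.37 CPM in PA and 5.59 to 8.61 CPM in control libraries, with Cldn5 at 0 in at least 8 of the 9 libraries. The 5 oligodendrocyte lineage markers summed to 42.0 to 59.4, 55.0 to 62.9 and 48.3 to 70.5 CPM in the same order, and 2 of 5 had a positive log2 fold change for PA + PS2 against control, as did 2 of the 6 astrocyte markers. Within these lists, and picked after their values were seen, Olig1, Pdgfra and the astrocyte gene Gja1 lay lower in every PA + PS2 library than in any other. Olig1 averaged 2.19 CPM in PA + PS2, 11.4 CPM in PA and 11.9 CPM in control libraries. Pdgfra averaged 0.954, 4.18 and 5.29 CPM, and Gja1 5.48, 10.8 and 11.5 CPM. In bulk RNA, fewer cells of a type and less RNA per cell cannot be told apart, and the part of these markers in the Camk2a and Camk2d levels was not tested.

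The CaMKII delta subunit, which is expressed in many tissues and in glia as well as neurons, is encoded by Camk2d (ENSMUSG00000053819, mm10 chr3:126596302-126846326, plus strand). It stood at 35.5, 32.3 and 32.2 CPM in PA + PS2 repeats 1, 2 and 3, at 27.9, 45.0 and 37.7 CPM in PA repeats, and at 41.3, 48.6 and 41.6 CPM in control repeats. The PA + PS2 libraries lay below the control libraries, and the PA libraries spread across both, with repeat 1 the lowest of all 9. The log2 fold change was -0.40 ± 0.15 for PA + PS2 against control, a fold of 0.76, and -0.25 ± 0.15 for PA against control. Leaving out 1 library at a time gave Camk2d -0.43 to -0.30 in PA + PS2 against control. The PA against control value of Camk2d was -0.42 without PA repeat 2 and -0.09 without PA repeat 1. PA + PS2 against PA gave -0.15 ± 0.15 for Camk2d, with overlapping libraries, and this value was -0.31 without PA repeat 1 and 0.04 without PA repeat 2.

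The beta subunit, which ties the kinase to actin filaments, is encoded by Camk2b (ENSMUSG00000057897, mm10 chr11:5969644-6066362, minus strand). It stood at 789, 777 and 730 CPM in PA + PS2 repeats 1, 2 and 3, at 852, 768 and 713 CPM in PA repeats, and at 846, 809 and 644 CPM in control repeats. Its groups overlapped throughout, and its log2 fold changes lay between -0.02 and 0.02, each with a standard error of 0.12. The gamma subunit gene Camk2g (ENSMUSG00000021820, mm10 chr14:20734875-20794088, minus strand) encodes a form known to shuttle calmodulin to the nucleus. It stood at 141, 144 and 144 CPM in PA + PS2 libraries, 161, 136 and 139 CPM in PA libraries and 136, 134 and 136 CPM in control libraries. PA + PS2 lay just above control in every library, with a log2 fold change of 0.08 ± 0.09, which was -0.01 when libraries were scaled to pan-neuronal markers. PA against control gave 0.10 ± 0.09 for Camk2g, and 0.02 without PA repeat 1, its highest library.

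Camk2n1 (ENSMUSG00000046447, mm10 chr4:138454314-138460123, plus strand) encodes a peptide inhibitor of CaMKII. It stood at 48.9, 42.6 and 44.5 CPM in PA + PS2 repeats 1, 2 and 3, at 45.6, 40.7 and 50.2 CPM in PA repeats, and at 45.4, 45.3 and 49.7 CPM in control repeats. The groups overlapped in every comparison, and the log2 fold changes were -0.05, -0.04 and -0.01 for PA + PS2 against control, PA against control and PA + PS2 against PA, each with a standard error of 0.11.

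**Figure D2:**
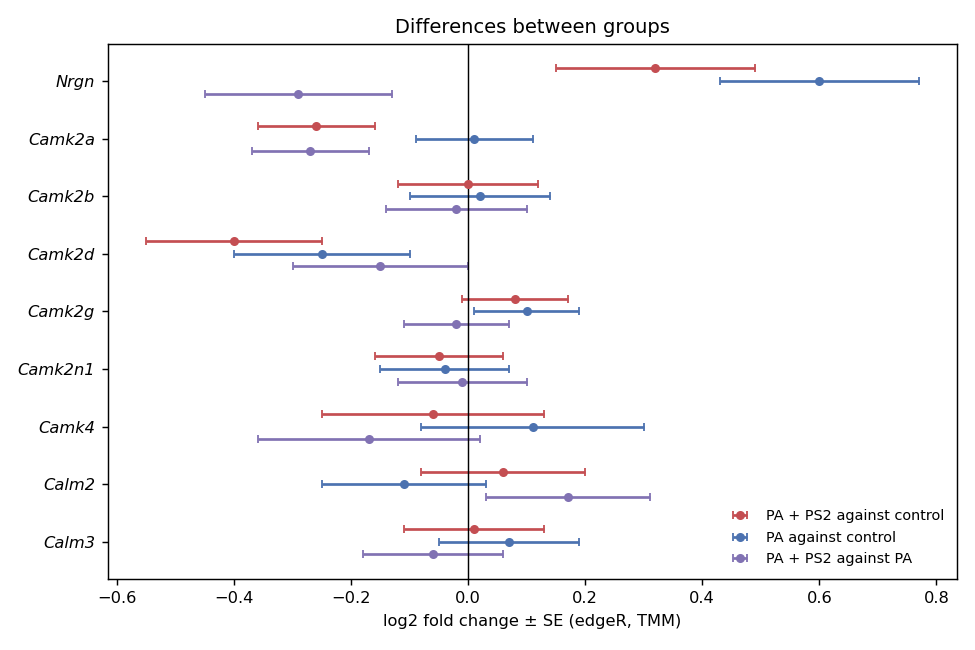
Fitted log2 fold changes of the 9 genes in the 3 comparisons, with standard errors as bars and 0 marking equal levels. Nrgn lies at 0.60 for PA against control, Camk2a at -0.26 and Camk2d at -0.40 for PA + PS2 against control, and no gene passed the adjusted threshold.

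Camk4 (ENSMUSG00000038128, mm10 chr18:32934931-33191228, plus strand), the nuclear kinase that phosphorylates CREB, stood at 103, 125 and 119 CPM in PA + PS2 repeats 1, 2 and 3. It stood at 96.1, 149 and 145 CPM in PA repeats and at 91.0, 141 and 129 CPM in control repeats. Repeat 1 was the lowest library in all 3 groups, and the groups overlapped in every comparison. Its log2 fold changes were -0.06, 0.11 and -0.17 for PA + PS2 against control, PA against control and PA + PS2 against PA, each with a standard error of 0.19. With 1 library left out, these values ran from -0.22 to 0.08, from -0.05 to 0.29 and from -0.35 to -0.05, so the first 2 have no fixed direction. Within each repeat the PA library lay above the control library, and the share of all genes ordered this way was not counted. With the repeat as a block, the PA against control value of Camk4 was 0.11 ± 0.09 and did not pass. Camk4 shares 72 exon bases with the antisense gene 2310026I22Rik, which had at most 5 reads in a library where Camk4 had at least 2136. The sources used here do not state whether the counting used strand.

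Calm2 (ENSMUSG00000036438, mm10 chr17:87433412-87446935, minus strand) stood at 334, 349 and 384 CPM in PA + PS2 repeats 1, 2 and 3, at 247, 329 and 375 CPM in PA repeats, and at 317, 340 and 367 CPM in control repeats. Within each group Calm2 was lowest in repeat 1 and highest in repeat 3, and the groups overlapped. Calm3 (ENSMUSG00000019370, mm10 chr7:16915379-16924114, minus strand) stood at 1038, 1021 and 1088 CPM in PA + PS2 libraries, 1292, 920 and 1069 CPM in PA libraries and 1141, 1023 and 964 CPM in control libraries. The log2 fold changes of Calm2 were 0.06, -0.11 and 0.17, each ± 0.14, for PA + PS2 against control, PA against control and PA + PS2 against PA. Those of Calm3 were 0.01, 0.07 and -0.06, each ± 0.12. Without PA repeat 1, PA against control was 0.04 for Calm2 and -0.07 for Calm3, and PA + PS2 against PA was 0.02 for Calm2 and 0.08 for Calm3, so PA repeat 1 sets the direction of 3 of these 4 values. PA repeat 1 held both the lowest Calm2 and the highest Calm3 level of the 9 libraries.

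Levels of different genes were compared only per length, as CPM divided by the length of the merged exons in kilobases (RPKM), by the median over the 9 libraries. The order was Calm3 at 428, Calm2 at 232, Camk2b at 85.1, Camk4 at 38.3, Camk2g at 21.8, Camk2a at 11.4, Camk2n1 at 10.2, Nrgn at 8.17 and Camk2d at 1.67 RPKM. Camk2a (9.72 to 13.1 RPKM), Camk2n1 (9.16 to 11.3 RPKM) and Nrgn (5.42 to 11.1 RPKM) overlapped with one another on this length and cannot be ordered beyond their spread. With the longest transcript as the length, Camk2a stood at 14.6 to 19.6 RPKM, above all values of Camk2n1 and Nrgn. Camk2d stood at 5.06 to 8.81 RPKM on this length and overlapped with Nrgn, and Camk2n1 and Nrgn still overlapped. Camk4 and Camk2g did not overlap on the merged exons (27.9 to 45.8 and 20.9 to 25.1 RPKM). On the longest transcript they did, at 33.5 to 54.9 and 36.1 to 43.4 RPKM. The medians kept the same order with this length, with Camk2a at 17.2 and Camk2d at 6.82 RPKM. Which ranges overlapped therefore depends on the length used, and the order of the medians does not.

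The make-up of the CaMKII family was taken within each library from these per-length levels. Camk2b held 71.3 ± 0.766% of the family in PA + PS2, 70.1 ± 0.841% in PA and 70.4 ± 2.54% in control libraries (SD, n = 3 each). Camk2g held 19.0 ± 0.755%, 18.7 ± 0.731% and 17.9 ± 2.12%, and Camk2d 1.26 ± 0.0507%, 1.37 ± 0.387% and 1.65 ± 0.188%, in PA + PS2, PA and control. Camk2a, the subunit that dominates in the adult forebrain, held 8.63, 8.2 and 8.55% in PA + PS2 repeats 1, 2 and 3. Its share was 9.85, 9.72 and 10.1% in PA repeats and 9.76 to 10.4% in control repeats, all above the PA + PS2 libraries. With the longest transcripts as lengths, the Camk2a share was 6.1 ± 0.167% in PA + PS2, 7.16 ± 0.17% in PA and 7.24 ± 0.259% in control. The Camk2d share on these lengths was 2.46 ± 0.0981%, 2.68 ± 0.748% and 3.22 ± 0.374% in PA + PS2, PA and control. In the same order, Camk2b held 75.7 ± 0.672%, 74.6 ± 0.808% and 74.7 ± 2.35% on these lengths. Camk2g held 15.8 ± 0.657%, 15.5 ± 0.671% and 14.9 ± 1.84%, so the size of each share depends on the length used.

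Ratios within a library do not depend on how libraries were scaled. The log2 ratio of Camk2a to Camk2b counts was -3.34, -3.42 and -3.33 in PA + PS2 repeats 1, 2 and 3, against -3.13, -3.15 and -3.06 in PA repeats and -3.18, -3.12 and -2.99 in control repeats. All PA + PS2 libraries lay below all others, so Camk2a counts were lower there relative to those of its sister subunit. The log2 ratio of Nrgn to Camk2a was -2.91, -2.62 and -2.47 in PA + PS2, -2.59, -2.57 and -2.79 in PA and -3.23, -3.15 and -3.36 in control libraries. All 6 PA + PS2 and PA libraries lay above all 3 controls on this ratio. For PA this went with a higher Nrgn count. For PA + PS2 it went with both a lower Camk2a count and a Nrgn mean between those of PA and control. This ratio and that of Camk2a to Camk2b reuse the levels given above, so their separation is no further result. How many other gene pairs separate in this way was not counted. The log2 ratio of Calm3 to Calm2 was 2.39 in PA repeat 1 and 1.4 to 1.85 in the other 8 libraries, with overlapping groups.

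**Figure D3:**
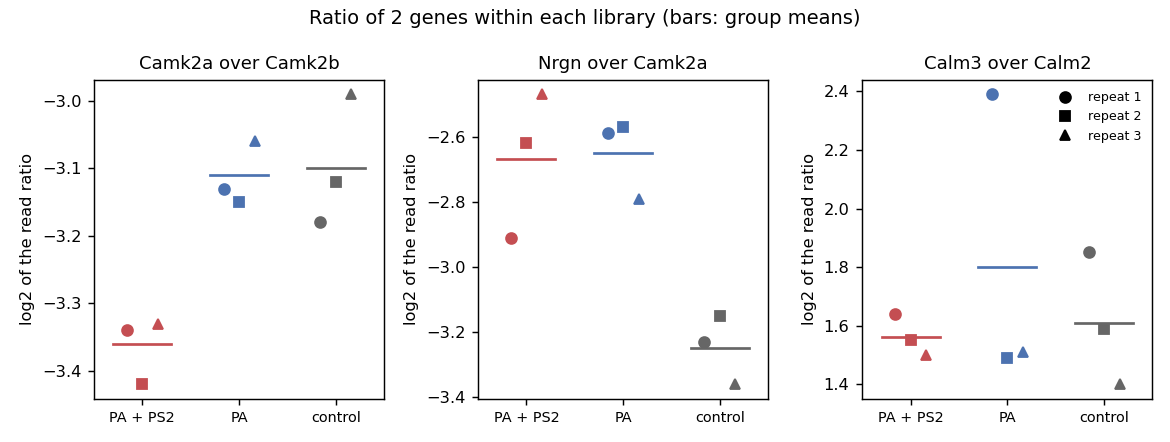
Log2 ratios of counts within each library for Camk2a to Camk2b, Nrgn to Camk2a and Calm3 to Calm2, by group in the order PA + PS2, PA and control; points are libraries and bars are group means. The Camk2a to Camk2b ratio averages -3.36 in PA + PS2, -3.11 in PA and -3.10 in control, and the Nrgn to Camk2a ratio averages -2.67, -2.65 and -3.25.

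Several members were ordered alike by repeat number in every group, and the share of all genes with such an order was not counted. Camk2a and Camk2b were highest in repeat 1 and lowest in repeat 3 in all 3 groups, while Camk4 and Calm2 were lowest in repeat 1 in all 3. An edgeR quasi-likelihood F test over the repeat numbers, chosen after the data were seen, passed 150 of 15712 genes, a background of 0.955%. Camk4 was the only member to pass this edgeR test, with an adjusted p of 0.0466. Of the further pathway genes described below, Pnck, a calmodulin-dependent kinase gene named here for this result, passed it with an adjusted p of 0.0497. The adjusted p was 0.102 for Calm2, 0.161 for Camk2b, 0.298 for Calm3, 0.316 for Camk2a and 0.72 for Nrgn in the same edgeR test. The labels do not say what the repeat numbers mark.

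**Figure D4:**
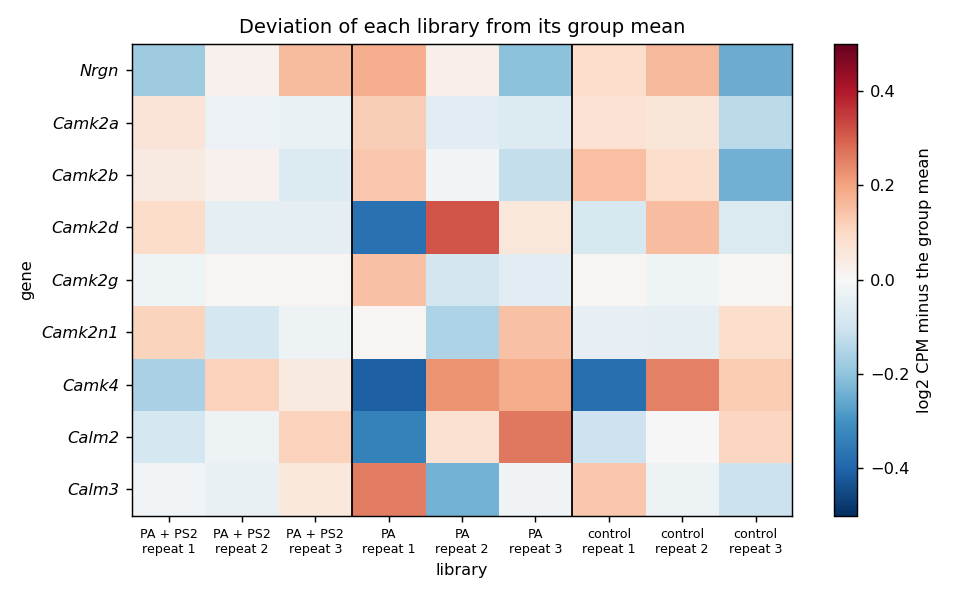
Deviation of each library from its group mean for the 9 genes, in log2 CPM, as a heat map with a row per gene and a column per library in the order PA + PS2, PA and control; red is above the mean and blue below. In all 3 groups repeat 1 is the bluest column for Camk4 and Calm2 and the reddest for Camk2a and Camk2b.

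Another 64 genes of the calmodulin pathway, in 6 lists, were all tested, and none passed the edgeR test in any comparison. At an unadjusted p under 0.05 edgeR listed 2 of 64 for PA + PS2 against control, 1 for PA against control and 2 for PA + PS2 against PA. The shares of all genes tested were 5.63%, 1.22% and 5.61% in the same order. Their groups did not overlap for 7 genes (10.9%), 1 gene (1.56%) and 6 genes (9.38%) in the same order, beside 11.9%, 4.04% and 9.64% of all genes. The median log2 fold changes were -0.04, 0.01 and -0.04.

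Among the CaMKII partners and substrates at the synapse, 0 of 10 passed. The median log2 fold change was -0.09 for PA + PS2 against control, with 1 of 10 above 0. It was 0.04 for PA against control, with 9 of 10 above 0. For PA + PS2 against PA it was -0.15, with 1 of 10 above 0. Uneven signs were not particular to this list. For PA + PS2 against PA, 12 of 14 enzymes and pumps lay below 0, and 9 of 11 calcineurin genes lay above 0. For PA + PS2 against control, 7 of 8 CREB genes lay below 0. The share of all genes above 0 was not counted. Lrrc7, which encodes densin-180, a scaffold that binds CaMKII, stood at 71.8, 75.8 and 67.9 CPM in PA + PS2 repeats 1, 2 and 3, at 85.8, 108 and 90.1 CPM in PA repeats, and at 77.9, 76.6 and 90.6 CPM in control repeats. Its PA + PS2 libraries lay below all 6 others. The log2 fold change of Lrrc7 was -0.40 ± 0.11 for PA + PS2 against PA (edgeR adjusted p = 0.371), -0.18 ± 0.11 for PA + PS2 against control and 0.22 ± 0.11 for PA against control. The NMDA receptor subunit gene Grin2a gave -0.31 ± 0.18 for PA + PS2 against PA and 0.23 ± 0.18 for PA against control, with overlapping groups. Shank3, a postsynaptic scaffold gene, gave -0.17 ± 0.13 for PA + PS2 against control.

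Among the other calmodulin-dependent kinases and their regulators, 0 of 13 passed and the list medians lay between -0.02 and -0.01. Mylk, the myosin light chain kinase of smooth muscle and other contractile cells, stood at 1.35, 2.62 and 0.541 CPM in PA + PS2 repeats 1, 2 and 3, at 3.33, 4.86 and 3.16 CPM in PA repeats, and at 3.12, 4.74 and 3.64 CPM in control repeats. The PA + PS2 libraries lay below all others, as did the summed fibroblast and mural markers given above, whose part in the Mylk level was not tested. The log2 fold change of Mylk was -1.34 ± 0.43 for PA + PS2 against control (edgeR adjusted p = 0.398) and -1.32 ± 0.43 for PA + PS2 against PA (adjusted p = 0.521). Against control it was -2.03 without PA + PS2 repeat 2 and -0.93 without PA + PS2 repeat 3, and against PA it was -2.02 and -0.91. Without the filter on low counts these adjusted p-values of Mylk were 0.00249 and 0.00316. The neuronal kinase gene Camk1g gave 0.17 ± 0.12 and 0.18 ± 0.12 in these comparisons. Camk1d and Dapk1 gave -0.07 ± 0.10 and 0.07 ± 0.09 for PA against control.

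Among the calmodulin-binding buffers and related genes, 0 of 8 passed, with medians of 0.02, 0.02 and -0.02 for PA + PS2 against control, PA against control and PA + PS2 against PA. Pcp4l1, related to the calmodulin regulator Pcp4, gave -0.53 ± 0.23 for PA + PS2 against control (edgeR adjusted p = 0.841), with groups that did not overlap. It gave -0.20 ± 0.23 for PA against control and -0.33 ± 0.24 for PA + PS2 against PA. Camkv, a kinase-like protein of synapses that lacks kinase activity, gave 0.13 ± 0.11 for PA against control and -0.13 ± 0.11 for PA + PS2 against PA. The transcription activator gene Camta1 gave 0.07 ± 0.09 for PA + PS2 against control, and -0.02 when scaled to pan-neuronal markers.

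Among the calcineurin subunits, their regulators and the NFAT factors, 0 of 11 passed, with medians of 0.00, -0.11 and 0.12 in the same order of comparisons. Nfatc3, a transcription factor that calcineurin activates, stood at 27.1, 28.3 and 30.5 CPM in PA + PS2, 20.7, 27.1 and 29.2 CPM in PA and 30.3, 30.6 and 34.5 CPM in control libraries. Its PA libraries lay below its controls, with a log2 fold change of -0.31 ± 0.13, and its PA + PS2 libraries overlapped with both groups. The calcineurin regulators Rcan1 and Rcan2 gave 0.13 ± 0.09 and 0.18 ± 0.11 for PA + PS2 against PA. Rcan1 gave 0.16 ± 0.09 for PA + PS2 against control, and Rcan2 gave -0.22 ± 0.11 for PA against control.

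Among the calmodulin-controlled enzymes and pumps, 0 of 14 passed, with medians of -0.07, 0.06 and -0.12. The calcium-stimulated adenylyl cyclase gene Adcy1 gave 0.14 ± 0.12 for PA against control, and Rasgrf2, an exchange factor for Ras, gave 0.16 ± 0.16. For PA + PS2 against control, a further cyclase gene, Adcy8, gave -0.29 ± 0.20 and the neuronal nitric oxide synthase gene Nos1 gave 0.34 ± 0.25. For PA + PS2 against PA, the plasma membrane calcium pump gene Atp2b2 gave -0.13 ± 0.09 and the inositol trisphosphate kinase gene Itpka gave -0.35 ± 0.29. Among the CREB factors and coactivators, 0 of 8 passed, with medians of -0.08, -0.03 and -0.08. The coactivator genes Crtc2 and Crtc3 gave -0.31 ± 0.22 and -0.15 ± 0.12 for PA + PS2 against control. Creb1 and Atf1, which encode related factors, gave -0.22 ± 0.22 and 0.22 ± 0.22 for PA against control. For PA + PS2 against PA, Atf1 gave -0.30 ± 0.22 and the acetyltransferase gene Ep300 gave -0.13 ± 0.11.

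**Figure D5:**
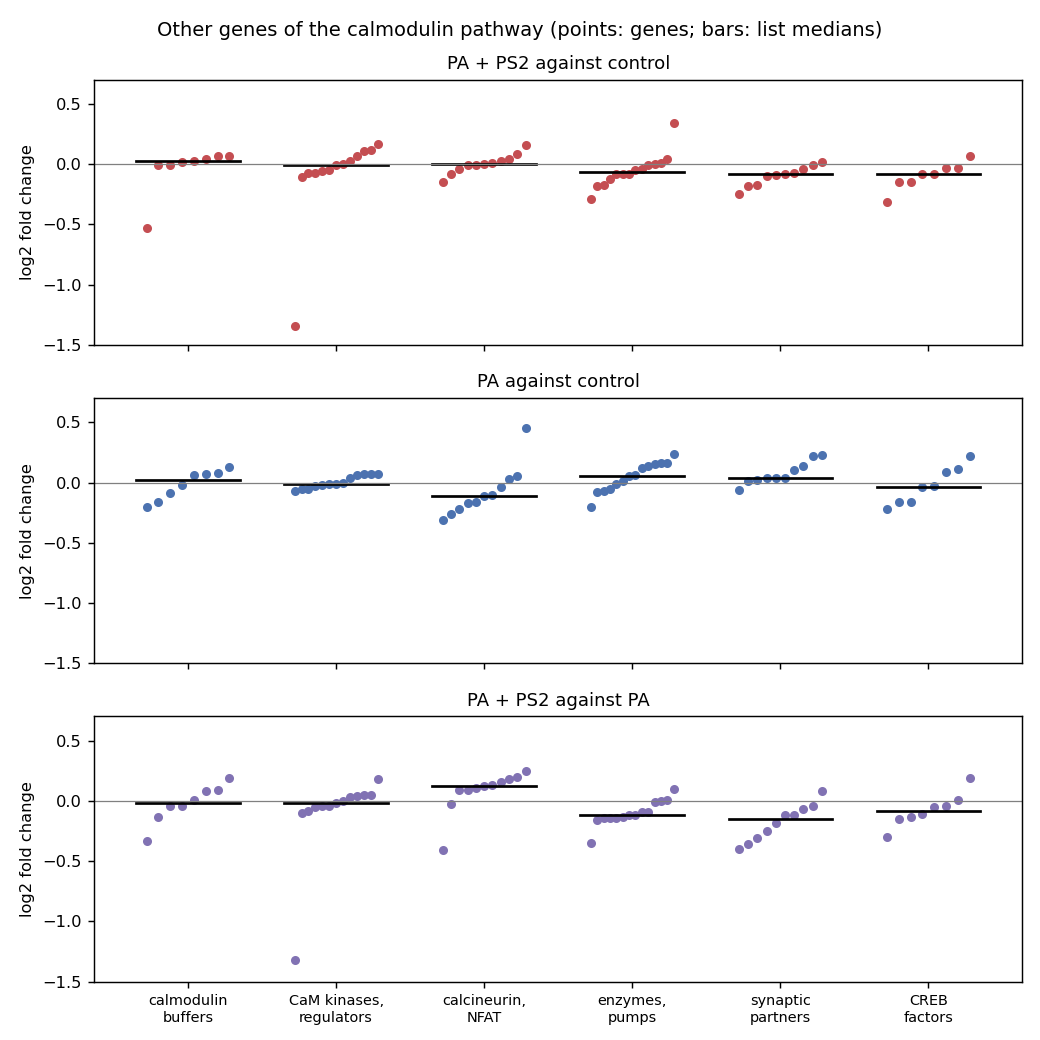
Log2 fold changes of the 64 further pathway genes by list in the 3 comparisons, with a point per gene and a line at each list's median. The synaptic partners of CaMKII have medians of -0.09 for PA + PS2 against control, 0.04 for PA against control and -0.15 for PA + PS2 against PA. For PA + PS2 against PA the enzymes and pumps have a median of -0.12 and the calcineurin list 0.12. Mylk is the lowest point at -1.34.

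The genes whose level most resembled that of Nrgn over the 9 libraries were listed by Pearson correlation of log2 CPM among 12263 protein-coding genes. They were Grrp1 (r = 0.92), Tmem199 (0.909), Cyb561 (0.903), Klhl18 (0.897) and Dbp, a circadian transcription factor (0.886). For Camk2a they were Hrh2, a histamine receptor (0.967), Adgrg1, an adhesion receptor (0.95), Anxa6, an annexin (0.949), Cemip2, a cell-surface hyaluronidase (0.937) and Nxn, which encodes nucleoredoxin (0.935). By Spearman rank correlation, Tmem199 stayed among the 5 highest for Nrgn, while Grrp1 and Klhl18 ranked 7, Dbp 12 and Cyb561 16. For Camk2a, only Cemip2 left the 5 highest, at rank 12. Hrh2 averaged 1.13 CPM, close to the lowest mean of 1 CPM that was allowed. The 9 points share groups and repeat numbers, and with this many genes set against 9 libraries the coefficients describe these libraries only.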

How the data were processed

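For each Ensembl gene the authors deposited a raw count of reads, a whole number without normalization, per the file headers and values, in 1 file per library. The submitters' processing notes list DESeq2 1.14.1, HTSeq 2.0.2, STAR 2.7.5, cutadapt 4.2 and the build mm10, without roles. The annotation release, strand setting and handling of reads with several matches are not given in the sources used here. Symbols and coordinates came from GENCODE M21, which matched 54165 of 54232 identifiers. No 2 libraries held identical values.

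CPM were computed with edgeR 4.0.16 in R 4.3.3 after TMM scaling, and the 2-sided quasi-likelihood F test was fitted to all 9 libraries, with 6 residual degrees of freedom. A gene filter (filterByExpr, lowest count 10, lowest total 15) left 15712 genes and 99.9% of counts; the common coefficient of variation was 16.6%. The p-values were adjusted by Benjamini and Hochberg over all genes tested, with a threshold of 0.05. Standard errors of log2 fold changes are the absolute fold change on that scale over the square root of F; counting errors cover counting only. The method was tested on simulated counts. Alternatives were other scalings, no filter, DESeq2 1.42.0, 2 groups only, a repeat block and leaving out each library.

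The members, the pathway lists and the marker lists were chosen with earlier results of these data known. Named genes are all 9 members, any pathway gene that passed in a comparison of groups and otherwise the 2 of each list with the smallest p in each comparison, and the 5 genes most like Nrgn and Camk2a. Pnck, Olig1, Pdgfra and Gja1 fall outside this rule. The pathway lists were used without 1 gene, which is not analysed here.

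The groups share repeat numbers, whose pairing was checked by the correlation across genes of deviations from group means. The correlations were 0.278, 0.287 and 0.249 for PA + PS2 and control, and 0.542, 0.436 and 0.431 for PA and control, so the block is printed beside these where it moved a count. No label gives the meaning of the numbers, so this pairing rests on the counts alone.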

Additional observations from a re-analysis of the deposited data

How the results depend on the processing

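No member passed under any alternative. The 9 genes gave 432 values (27 log2 fold changes under 16 alternatives). Of these, 429 lay within 1 SD of the reported value (SD pooled over groups, of the gene's log2 CPM). Leaving out 1 library of 3 could hardly move a value by more than this SD, so that number does not measure stability. The other 3 values were all of Camk2g. They were -0.01 for PA + PS2 against control when scaled to pan-neuronal markers, and, without PA repeat 1, 0.02 for PA against control and 0.06 for PA + PS2 against PA. With 1 library left out, 14 of the 27 values turned sign at least once, in 8 of the 9 genes (all but Nrgn); the largest of them were Camk2d, -0.15 for PA + PS2 against PA with a range of -0.31 to 0.04, and, for PA against control, Camk4 at 0.11 (-0.05 to 0.29) and Calm2 at -0.11 (-0.24 to 0.04). Where groups do not overlap, as for Nrgn in PA against control, leaving out 1 library could hardly turn the sign. With 3 libraries a group and 171 to 360 reads per library, Nrgn is the gene that depth limits most.

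The number of genes passing for PA + PS2 against control, 7, was 17 with relative log expression scaling, 0 with pan-neuronal scaling, 365 without the filter, 232 with DESeq2, 28 with 2 groups only and 0 to 175 with 1 library left out. For PA + PS2 against PA, 0 became 330 without the filter, 136 with DESeq2 and 0 to 37 with 1 library left out, with 37 without control repeat 1 and 2 without PA + PS2 repeat 2. For PA against control, 0 became 23 without the filter and stayed at 0 under the other alternatives. The cause was not tested.

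With the repeat number as a block, the counts were 184 for PA + PS2 against control, 57 for PA + PS2 against PA and 0 for PA against control; no call of a member or named pathway gene changed. For PA + PS2 and PA the pairing correlations were 0.0722, 0.309 and 0.415.

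Among the 24 named pathway genes, values that changed sign were Camta1 at -0.02 for PA + PS2 against control (pan-neuronal scaling) and, for PA against control, Camk1d at 0.02 (without control repeat 2; range -0.13 to 0.02 with 1 library left out), Grin2a at -0.0005 (without PA repeat 2; up to 0.38), Creb1 at 0.02 (without PA repeat 1; down to -0.39) and Atf1 at -0.0035 (without control repeat 1; up to 0.37). Mylk passed without the filter on low counts in both comparisons of PA + PS2.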
